A study of Homo sapiens with 12 samples.

Results

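The 6 arrays of untreated cells were taken from a series of 12 bead arrays and used to find the genes that set the papillary thyroid cancer line TPC1 apart from the lines BCPAP and K1 before any treatment. Each line had 2 untreated arrays. The other 6 arrays were of the same lines with Y15, an inhibitor of focal adhesion kinase (FAK). Its dose is 10 µM in the sample titles and its time was taken as 24 hours. These arrays served here only to read the same genes again. The lines differ in driver and in medium: the study gives the RET/PTC1 rearrangement for TPC1, mutations that include BRAF for BCPAP, and BRAF and PIK3CA for K1. TPC1 and BCPAP were grown in RPMI with fetal bovine serum, and K1 in a mixed medium of DMEM, Ham's F-12 and MCDB 105, so that for K1 the line and its medium cannot be told apart. All 3 are established lines, and no source used here says whether the replicates came from separate cultures, so the p-values measure only the spread between these samples, which may be technical.

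RET is the receptor tyrosine kinase for ligands of the GDNF family, which bind it through GFRA co-receptors. In RET/PTC1 its kinase part is joined to the start of CCDC6 and is active without ligand, while a mutated BRAF kinase acts further down the same MAPK pathway, whose output genes include phosphatases and Sprouty proteins that hold the pathway back. Follicular cells of the thyroid are known for thyroglobulin, the iodide transporter and the transcription factors PAX8, NKX2-1 and FOXE1, and much of this programme is lost in cultured carcinoma lines.

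Between 16004 and 20376 probes had a detection p under 0.05, here called above background, on the 6 arrays, with the lowest number and the lowest mean signal (215.4, against 316.3 to 393.1 on the others) on replicate 2 of BCPAP. The correlation between replicates across probes, which are not independent, was 0.998 for TPC1, 0.993 for BCPAP and 0.997 for K1. The first principal component carried 57.4% of the variance with TPC1 and BCPAP at opposite ends, and the second, with 39.6%, set K1 apart. Of the thyroid markers, thyroglobulin (TG), TSHR and SLC5A5 were not above background on both arrays of any line, while PAX8 had mean log2 signals of 11.53 (TPC1), 9.43 (BCPAP) and 11.65 (K1). NKX2-1 had 8.73 in BCPAP and was near background in TPC1 (6.68) and K1 (6.61). None of the C cell and endothelial markers was measured in any line, and of the leukocyte markers PTPRC and CD3E were not above background on both arrays of any line. Of the 3 leukocyte markers that were measured, 2 were lower in TPC1 than in both lines, CD14 with means of 7.22, 7.62 and 9.42 in TPC1, BCPAP and K1 and CD68, a lysosomal protein, with 7.92, 9.26 and 9.06, while LAPTM5 was lower than in BCPAP only (6.96, 8.26 and 6.80). Their part in the other differences was not tested.

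A gene was called set apart where TPC1 differed the same way from BCPAP and from K1, each with an adjusted p under 0.05 from limma. Of 11847 genes tested, 1954 (16.5%) were higher in TPC1 than in both lines and 1412 (11.9%) were lower. Over 2-fold against each line, 248 (2.09%) were higher and 100 (0.844%) lower. When each array was centred on its median instead of quantile normalized, 779 genes (6.58%) were higher and 93 (0.785%) lower, 363 (3.06%) and 58 (0.49%) of them over 2-fold, and the median difference of all genes to the mean of the other lines moved from 0.01 to 0.21 on the log2 scale. Main counts of a gene list below stand against 16.5% (higher) and 11.9% (lower) of all genes. Counts of a list with median centring, given beside its main counts, stand against the shares of 6.58% and 0.785%. Against the mean of BCPAP and K1, 3442 genes (29.1%) were higher and 3230 (27.3%) lower, and of these 6672 genes 3366 differed from both lines and 991 had TPC1 between them. With median centring 2428 were higher and 459 lower than this mean. The same rule set 248 genes (2.09%) over 2-fold higher and 229 (1.93%) lower in BCPAP, and 210 (1.77%) higher and 59 (0.498%) lower in K1. Signals are log2 values throughout, and a difference of 1 between them is 2-fold. Paired values of a fold or difference are given against BCPAP first and K1 second, and 3 means in the order TPC1, BCPAP, K1. Each gene is given by its brightest probe, and whether it was above background refers to that probe, unless another is named. As the arrays read bulk RNA, fewer cells with a transcript and less of it per cell cannot be told apart.

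**Figure D1:**
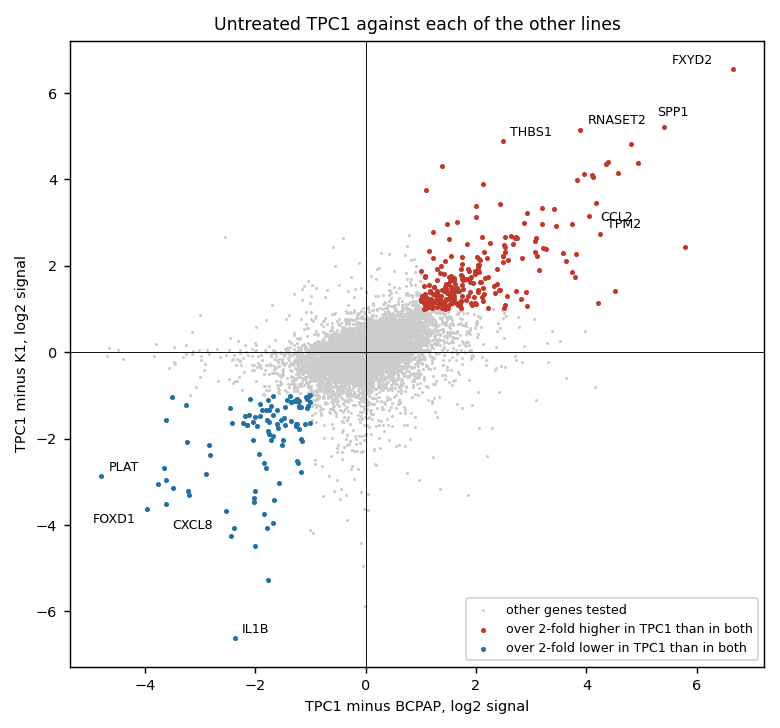
Difference in log2 signal of untreated TPC1 to BCPAP (horizontal) and to K1 (vertical), with 1 point a gene and each line the mean of 2 arrays. The genes over 2-fold apart from both lines lie in the upper right corner (higher in TPC1) and the lower left corner (lower), with FXYD2 at 6.65 and 6.55 and IL1B at -2.37 and -6.62 farthest out.

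RET and its co-receptor GFRA1 were both higher in TPC1, and of the 4 measured genes of RET, its ligands and co-receptors 2 were higher and 1 lower, with median centring too. RET read 7.91 and 8.02 in TPC1, with BCPAP at 6.76 and 6.97 and K1 at 6.74 and 6.76. It was above background on 1 of the 2 BCPAP arrays and neither K1 array, and was 2.13-fold and 2.15-fold higher, the second value a lower bound. RET passed the detection filter through its TPC1 arrays alone, so its adjusted p-values from limma (8.29e-07 or less) are no separate support. A further RET probe gave means of 7.89, 6.71 and 6.74 in TPC1, BCPAP and K1, and the third was not above background in any line. The position of these probes on either side of the break was not analysed here. GFRA1 read 10.08 and 10.03 in TPC1, with BCPAP at 6.85 and 6.86 and K1 at 6.72 and 6.73. It was above background only on the TPC1 arrays, at least 8.79-fold and 9.16-fold higher. GDF15, a stress cytokine with a RET co-receptor of its own, was lower in TPC1, with means of 6.97, 8.65 and 8.41, though not when all 12 arrays entered the fit. No GDNF family ligand with a probe was called.

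PTK2, which encodes FAK, read 11.23 and 11.12 in TPC1, with BCPAP at 10.29 and 10.05 and K1 at 11.36 and 11.28. TPC1 and K1 lay together above BCPAP, with a difference of 1.00 to BCPAP (adjusted p = 2.6e-06) and of -0.15 to K1 with a 95% half-width of 0.20 (adjusted p = 0.212). PTK2B, its closest relative, had means of 7.32, 7.18 and 7.49 and was called against neither line. The other PTK2 probe above background was dimmer and was lower in TPC1 than in K1 (means 7.13 and 7.56; 7.24 in BCPAP), and it was called against K1 only, so the probes of PTK2 do not give the same order of lines.

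The cell cycle inhibitors of the CDKN2A locus separated all 3 lines. CDKN2A, which encodes p16 and p14ARF, read 10.08 and 10.01 in TPC1, with BCPAP at 8.12 and 7.97 and K1 at 6.70 and 6.62. TPC1 was 4.01-fold higher than BCPAP and at least 9.11-fold higher than K1, where this probe was not above background. A dimmer probe of CDKN2A, above background on 1 of the 2 K1 arrays, gave the same order, with means of 8.49, 7.41 and 6.83. CDKN2B, its neighbour and a CDK4 and CDK6 inhibitor, was also highest in TPC1 and not above background in K1 (means 7.74, 7.20 and 6.77). MTAP, the methylthioadenosine phosphorylase gene beside them, was low in K1 alone, with means of 8.55, 8.82 and 6.80. TPC1 was slightly below BCPAP and 3.36-fold above the mean of K1, where 1 of the 2 arrays was above background. CDKN1A, which encodes p21, lay between the other lines in TPC1 (means 11.14, 10.01 and 11.95), and MDM2, a ubiquitin ligase, was called against neither line.

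Among genes above background on all 6 arrays, 146 were over 2-fold higher in TPC1 than in both lines. The leading gene by its smaller difference was AIF1L, which bundles actin. AIF1L read 11.23 and 11.13 in TPC1, with BCPAP at 7.21 and 7.22 and K1 at 7.02 and 7.10, a 15.6-fold and 17.4-fold higher level. RNASET2, a lysosomal and secreted ribonuclease, read 13.37 and 13.18 in TPC1, with BCPAP at 9.32 and 9.45 and K1 at 8.13 and 8.11. Both genes were within a narrow band in each line, and the TPC1 arrays were far above all 4 others. RNASET2 was 14.8-fold and 35.5-fold higher and also differed between BCPAP and K1.

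Several of the other leading genes act at the cell surface or in the matrix. SLC7A5, the large neutral amino acid transporter, read 12.21 and 12.14 in TPC1, with BCPAP at 9.0 and 8.95 and K1 at 9.19 and 9.23. TPM2, a tropomyosin that stabilises actin filaments, read 12.64 and 12.66 in TPC1, with BCPAP at 8.34 and 8.46 and K1 at 9.94 and 9.87. SLC7A5 was 9.19-fold and 7.8-fold higher with the other lines near each other, while TPM2 was 19.0-fold and 6.7-fold higher with K1 well above BCPAP. VCAN, the large proteoglycan versican, read 11.50 and 11.38 in TPC1, with BCPAP at 8.57 and 8.16 and K1 at 8.99 and 8.75. THBS1, the adhesive glycoprotein thrombospondin 1, read 12 and 12.12 in TPC1, with BCPAP at 9.80 and 9.36 and K1 at 7.24 and 7.11. VCAN was 8.42-fold and 5.92-fold higher, and THBS1 5.58-fold and 29.6-fold higher, with the level of BCPAP between those of TPC1 and K1. The other genes of the leading 10 were SYTL2, a Rab27 effector in vesicle transport (13.3-fold and 7.78-fold), CEMIP2, a cell surface hyaluronidase (10.9-fold and 7.54-fold), MATN2, a matrilin of the matrix (6.36-fold and 5.67-fold), and the kinase ALPK2 (5.43-fold and 10.8-fold). On each of the 10 genes both TPC1 arrays lay above the other 4 arrays, which follows from choosing them by their differences on these arrays. Over these and the rest of the 40 leading genes, the standard error of a difference ran from 0.07 to 0.126. The highest adjusted p from limma was 2.63e-08. All 40 were picked for large differences on these same arrays, so that a small p-value follows from the choice.

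Lower in TPC1 by over 2-fold, and above background on all 6 arrays, were 75 genes. FOXD1, a forkhead transcription factor, read 6.85 and 6.87 in TPC1, with BCPAP at 10.79 and 10.85 and K1 at 10.44 and 10.53. SCG5, a chaperone of a prohormone convertase, read 6.88 and 6.99 in TPC1, with BCPAP at 10.62 and 10.47 and K1 at 10.48 and 10.40. In both genes TPC1 lay close to background while BCPAP and K1 were alike, at 15.5-fold and 12.3-fold above TPC1 for FOXD1 and 12.2-fold and 11.4-fold for SCG5. TOX2, an HMG-box factor, and ARHGDIB, an inhibitor of small GTPase cycling known from blood cells, were 9.18-fold and 9.88-fold and 11.3-fold and 8.8-fold lower. Secreted regulators of growth followed. IGFBP4, which binds insulin-like growth factors, read 8.53 and 8.84 in TPC1, with BCPAP at 12.42 and 12.49 and K1 at 11.80 and 11.66. PLAT, the tissue plasminogen activator, read 7.18 and 7.18 in TPC1, with BCPAP at 11.92 and 12.02 and K1 at 9.97 and 10.14. HBEGF, a ligand of the EGF receptor, read 8.46 and 8.38 in TPC1, with BCPAP at 12.07 and 12.08 and K1 at 11.08 and 11.11. These were 13.6-fold and 8.23-fold, 27.6-fold and 7.33-fold and 12.6-fold and 6.39-fold lower in TPC1 than in BCPAP and K1, all with the highest level in BCPAP. MDK, the growth factor midkine, was 7.44-fold and 7.07-fold lower, a dimmer probe being called against K1 only, and COL5A1, a fibrillar collagen chain, 7.04-fold and 5.18-fold lower.

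**Figure D2:**
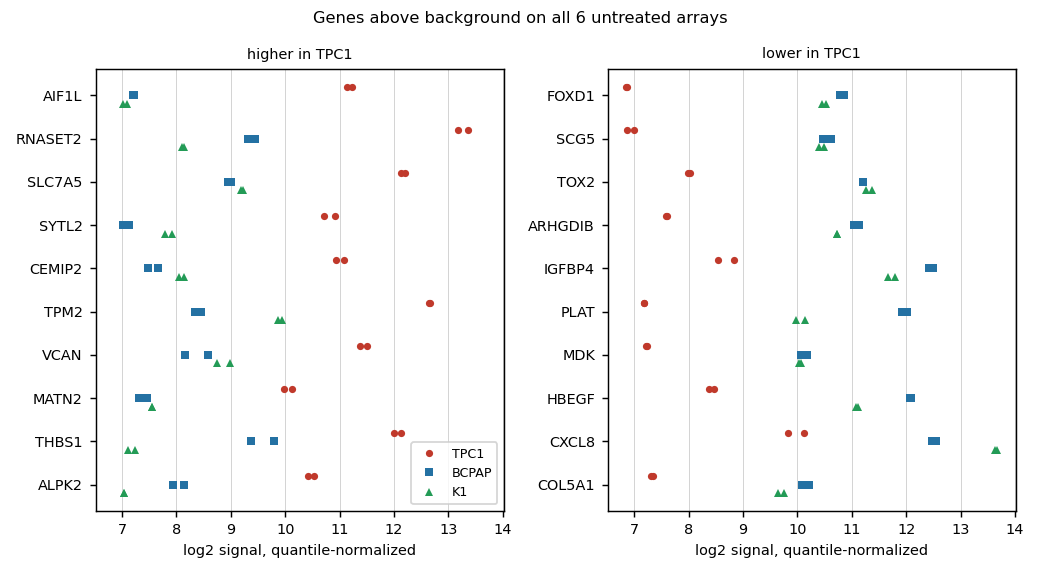
Log2 signal on each of the 6 untreated arrays (horizontal, quantile-normalized) for the 10 leading genes higher in TPC1 (left) and the 10 lower (right) among those above background on all arrays; each point is 1 array. The genes were chosen for the largest differences on these arrays, so that the TPC1 points stand apart in all 20 by choice. The genes run from AIF1L at 11.13 and above in TPC1 against 7.22 and below to COL5A1 at 7.35 and below against 9.65 and above.

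Some genes were measured on one side only. Over 2-fold apart even with the dim side set at the lowest signal called above background, 27 genes were above background only in TPC1 and 21 only in the other lines. FXYD2, a regulatory subunit of the sodium and potassium pump, read 13.21 and 13.25 in TPC1, with BCPAP at 6.54 and 6.61 and K1 at 6.72 and 6.63. It was at least 79.4-fold and 82.7-fold higher, and its other 3 probes gave TPC1 means of 9.21 to 9.59 against 6.92 or less in the other lines. PLIN2, which coats lipid droplets, read 11.70 and 11.51 in TPC1, with BCPAP at 6.82 and 6.78 and K1 at 6.79 and 6.77, at least 25.8-fold and 26.8-fold higher. FLG, the skin barrier protein filaggrin, read 11.23 and 10.89 in TPC1, with BCPAP at 6.63 and 6.69 and K1 at 6.68 and 6.61. All 3 genes were at background in BCPAP and K1. Next came KCNIP1, a partner of voltage-gated potassium channels (at least 15.2-fold and 15.9-fold), SLC17A3, an organic anion transporter of the kidney (at least 14.5-fold and 15.1-fold), SCARA3, a scavenger receptor-like protein (at least 12.4-fold and 12.9-fold), LUM, the matrix proteoglycan lumican (at least 6.99-fold and 7.28-fold), TM4SF18 (at least 5.6-fold and 5.84-fold) and UGT2B11, a glucuronosyltransferase of a family with near-identical members that its probe may also read (at least 5.84-fold and 6.09-fold).

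Several genes of secreted and surface proteins were not above background in TPC1. SFRP1, a secreted inhibitor of Wnt ligands, read 6.78 and 6.84 in TPC1, with BCPAP at 10.19 and 9.88 and K1 at 10.04 and 10.01, so that BCPAP and K1 shared a level at least 9.07-fold and 9.05-fold above TPC1. CD70, the ligand of CD27 on lymphocytes, read 6.79 and 6.76 in TPC1, with BCPAP at 10.33 and 10.45 and K1 at 9.83 and 9.63, and was at least 11.6-fold and 7.37-fold lower. THY1, a surface glycoprotein of fibroblasts and other cells, was at least 6.5-fold and 4.03-fold lower. The others had a higher mean in K1 than in BCPAP except IL7R, the interleukin 7 receptor (at least 3.86-fold and 3.21-fold lower). They were FEZ1, a kinesin adaptor (at least 4.96-fold and 17.4-fold; a dimmer probe was above background in TPC1, with means of 6.96, 7.27 and 7.29), GREM1, a BMP antagonist (at least 3.92-fold and 9.92-fold), PTGES, which makes prostaglandin E (at least 3.76-fold and 20.8-fold), the G protein subunit GNA15 (at least 3.16-fold and 5.24-fold), APCDD1L (at least 3.24-fold and 12.1-fold) and the chemokine CXCL6. A second GREM1 probe was above background only in K1.

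**Figure D3:**
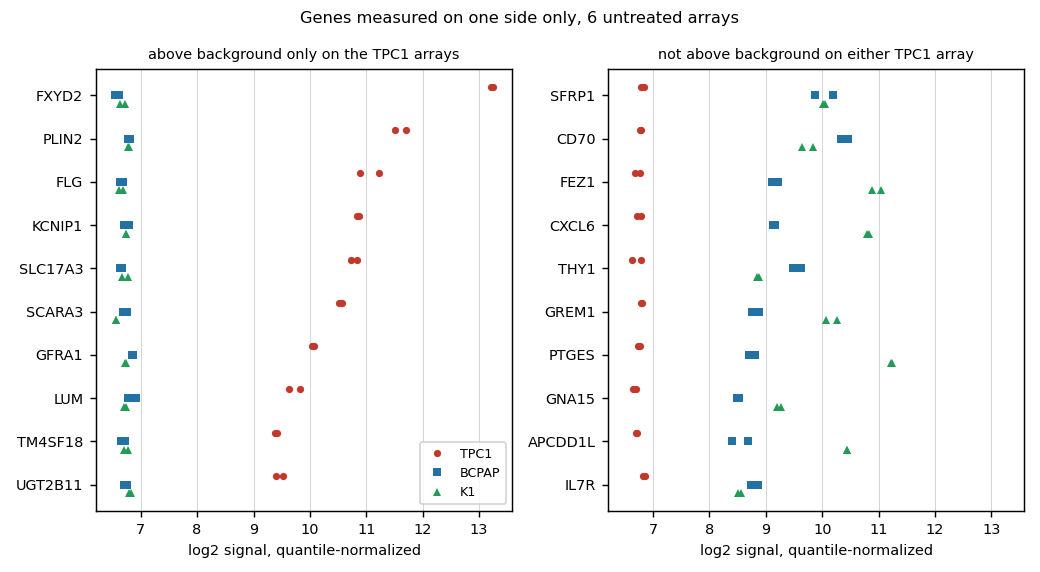
Log2 signal on each of the 6 untreated arrays (horizontal, quantile-normalized) for 10 genes above background only on the TPC1 arrays (left) and 10 not above background on either TPC1 array (right); each point is 1 array. FXYD2 stands at 13.21 and 13.25 in TPC1 against 6.72 or less elsewhere, and SFRP1 at 6.84 or less in TPC1 against 9.88 or more.

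CXCL8, CXCL6 and interleukin 1 beta were low in TPC1. CXCL8, the main neutrophil chemokine, read 10.13 and 9.84 in TPC1, with BCPAP at 12.54 and 12.48 and K1 at 13.67 and 13.62. CXCL6, a relative of it that uses the same receptors, read 6.79 and 6.71 in TPC1, with BCPAP at 9.15 and 9.12 and K1 at 10.79 and 10.83. IL1B, the inflammatory cytokine interleukin 1 beta, read 6.96 and 6.96 in TPC1, with BCPAP at 9.35 and 9.31 and K1 at 13.62 and 13.53. All 3 were lowest in TPC1 and highest in K1, with CXCL8 5.76-fold and 12.7-fold lower, CXCL6 at least 4.88-fold and 15.5-fold lower and IL1B 5.17-fold and 98.2-fold lower than in BCPAP and K1. Other neutrophil chemokines differed in their order: CXCL1 was lowest in TPC1 (means 8.95, 9.72 and 12.28), CXCL2 was higher than in BCPAP and lower than in K1 (8.31, 7.56 and 11.10), and CXCL5 was called lower than BCPAP only (6.70, 7.47 and 6.87), all 3 picked after their values were seen. In the other direction CCL2, which attracts monocytes, read 10.71 and 10.86 in TPC1, with BCPAP at 6.70 and 6.77 and K1 at 7.67 and 7.58. It was at least 14.6-fold higher than BCPAP and 8.93-fold higher than K1. IL32, a cytokine of activated lymphocytes and epithelium, read 9.50 and 9.57 in TPC1, with BCPAP at 7.41 and 7.38 and K1 at 7.22 and 7.18, and was 4.4-fold and 5.04-fold higher. Over the 33 interleukins, chemokines and related genes measured, 4 were higher and 11 lower (33.3%, against 11.9% of all genes), with a median difference of -0.25 to the mean of the other lines against 0.01 for all genes. With median centring these counts were 5 (15.2%, against 6.58% of all genes) and 4 (12.1%, against 0.785%).

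The promoters of CXCL8 and CXCL6, which lie near each other on chromosome 4 and read low together in TPC1, are shown because both hold the same motif. Those of SLC17A3 and SPP1, from the genes high in TPC1, were chosen after the search as one with a motif and one with none. Each is the 150 bases before the transcript start in RefSeq, build GRCh38.p14, 5′ to 3′ on the gene's strand. Capitals mark an NF-kB motif (GGAATTTCC), an AP-1 motif (TGANTCA) or a TATA box (TATAAA), each searched on both strands.
CXCL8 (chr4:73740419-73740568, + strand): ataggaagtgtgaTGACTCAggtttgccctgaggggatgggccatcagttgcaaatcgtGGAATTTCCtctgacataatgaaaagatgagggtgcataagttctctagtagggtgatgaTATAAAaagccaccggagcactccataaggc
CXCL6 (chr4:73836528-73836677, + strand): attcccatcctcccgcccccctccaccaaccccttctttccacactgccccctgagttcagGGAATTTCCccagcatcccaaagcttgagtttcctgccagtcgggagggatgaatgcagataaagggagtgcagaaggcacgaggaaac
SLC17A3 (chr6:25874244-25874393, - strand): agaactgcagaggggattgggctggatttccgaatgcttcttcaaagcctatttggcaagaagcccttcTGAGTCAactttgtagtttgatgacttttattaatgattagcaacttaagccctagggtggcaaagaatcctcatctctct
SPP1 (chr4:87975564-87975713, + strand): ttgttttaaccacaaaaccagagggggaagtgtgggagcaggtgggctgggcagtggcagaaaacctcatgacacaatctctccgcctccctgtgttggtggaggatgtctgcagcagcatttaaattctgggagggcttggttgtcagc
CXCL8 held all 3 motifs, with AP-1 at 137 to 131, NF-kB at 91 to 83 and the TATA box at 31 to 26 bases before the start. CXCL6 held the NF-kB motif at 89 to 81 bases, at nearly the same distance as CXCL8. SLC17A3 held an AP-1 motif at 81 to 75 bases and SPP1 none of the 3. Over windows of this length the NF-kB motif was in 0.26% of 27305 promoters, in 0.251% of the 9547 of genes tested, in 1.03% of the 195 matched genes over 2-fold higher in TPC1 (2 genes) and in 2.6% of the 77 over 2-fold lower (CXCL8 and CXCL6). AP-1 was in 4.14% of all promoters, 2.51% of those of genes tested, 2.56% of the higher and 7.79% of the lower genes, and the TATA box in 7.05%, 3.49%, 5.64% and 7.79%. Only this 1 spelling of the NF-kB motif was searched. Its shares among the higher and the lower genes rest on 2 genes each and were not tested. A match is a run of letters and not a measured site.

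Genes of focal adhesions, where FAK acts, and of the actin cytoskeleton were mostly on the higher side where they were set apart. Of 27 measured focal adhesion proteins 11 were higher (40.7%, against 16.5% of all genes) and 3 lower, with a median difference of 0.39, and of 39 actin-binding and contractile proteins 16 were higher (41%) and 1 lower, with a median of 0.17. With median centring the counts were 4 (14.8%, against 6.58% of all genes) and 0 for focal adhesions and 7 (17.9%) and 0 for actin. TLN2, a talin that links integrins to actin, read 8.83 and 8.97 in TPC1, with BCPAP at 7.11 and 6.90 and K1 at 7.22 and 7.14, where replicate 2 of BCPAP was below the detection threshold. TGFB1I1, the paxillin relative Hic-5, had means of 10.35, 9.25 and 9.33, and FBLIM1, a filamin-binding adaptor, 7.84, 7.28 and 7.16. Both were lower in BCPAP and K1 alike. MYLK, the myosin light chain kinase, read 9.90 and 9.98 in TPC1, with BCPAP at 7.56 and 7.45 and K1 at 8.50 and 8.48, and was 5.43-fold and 2.73-fold higher. GSN, the actin-severing protein gelsolin, had means of 8.63, 7.63 and 7.42. Vinculin (VCL) was higher as well (means 12.44, 11.46 and 11.90), though not with median centring. FYN, a Src family kinase, FERMT1, a kindlin, and PXN, paxillin, were the 3 lower genes of the adhesion list, and none of these was called with median centring.

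Integrins and matrix genes went both ways. Of 16 integrin subunits 5 were higher (31.2%) and 3 lower (18.8%), with 2 and 0 under median centring. ITGB5, a vitronectin receptor chain, read 12.79 and 12.60 in TPC1, with BCPAP at 10.95 and 10.96 and K1 at 11.10 and 11.16, 3.34-fold and 2.96-fold higher. ITGB3, another partner of the alpha V chain, had means of 8.62, 6.86 and 7.72. Of 26 collagen and laminin chains 11 were higher (42.3%) and 6 lower (23.1%), with 7 and 2 under median centring. COL4A1, a basement membrane collagen, read 12.65 and 12.47 in TPC1, with BCPAP at 10.64 and 10.51 and K1 at 10.64 and 10.73, while LAMA5, a basement membrane laminin chain, read 11.78 and 11.72 in TPC1, with BCPAP at 10.35 and 10.39 and K1 at 7.43 and 7.44. COL4A1 was alike in BCPAP and K1, and LAMA5 was only just above background in K1, 20.0-fold below TPC1. COL18A1 and COL8A1 were higher as well (means 8.90, 6.76 and 7.55, and 11.67, 10.57 and 7.90), though a dimmer probe of COL8A1 was not called against BCPAP. Beside COL5A1, COL13A1, a transmembrane collagen, was lower, with means of 6.88, 8.12 and 8.54.

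Of 34 matricellular proteins and proteoglycans 10 were higher (29.4%) and 5 lower (14.7%), with 7 and 0 under median centring. SPP1, the secreted phosphoprotein osteopontin, read 12.20 and 12.19 in TPC1, with BCPAP at 6.79 and 6.79 and K1 at 7.04 and 6.93. It was at least 38.7-fold higher than BCPAP and 37.0-fold higher than K1, and a second SPP1 probe gave means of 11.96, 6.80 and 6.95. Of 10 genes of the plasminogen system 3 were higher (30%) and 3 lower (30%), with 0 and 2 under median centring. TFPI2, a protease inhibitor of the matrix, read 6.93 and 6.95 in TPC1, with BCPAP at 8.68 and 8.77 and K1 at 11.10 and 10.93. It was lowest in TPC1 like PLAT, but highest in K1 where PLAT was highest in BCPAP. The 3 higher were PLAU (means 12.71, 11.81 and 12.48), SERPINE2 (12.26, 11.84 and 9.97) and TFPI (9.53, 9.16 and 8.87). Other TFPI probes above background were not called against BCPAP.

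Of 17 measured genes of the mesenchymal state, 6 were lower (35.3%, against 11.9%) and 1 higher, with a median difference of -0.42; with median centring 3 were lower and 1 higher. LOX, which cross-links collagen, read 7.40 and 7.44 in TPC1, with BCPAP at 11.05 and 11.02 and K1 at 8.96 and 9.02, and SNAI2, the transcription factor Slug, was also low in TPC1 (means 7.90, 8.56 and 10.77). TGFBI, a secreted matrix protein, had means of 12.69, 13.64 and 13.65. TAGLN, the smooth muscle protein transgelin, was the one higher, at 11.51, 10.63 and 9.36. Vimentin (VIM) and CDH2 were high in all 3 lines and not set apart. Of 18 epithelial junction and keratin genes 5 were higher (27.8%) and 1 lower (5.56%), with 1 and 0 under median centring. DSG2, a desmosomal cadherin, read 10.97 and 10.78 in TPC1, with BCPAP at 9.69 and 9.46 and K1 at 9.06 and 8.85, and was 2.46-fold and 3.78-fold higher. DSP, desmoplakin, also of desmosomes, was the 1 lower (means 6.81, 8.26 and 7.06), and a dimmer probe of it was called against BCPAP only. Of the epithelial markers CDH1 was not above background on both arrays of any line, and none of the 5 measured was set apart.

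Output genes of the MAPK pathway went both ways. Of 22 measured, 3 were higher (13.6%) and 7 lower (31.8%, against 11.9%), with a median of -0.06. With median centring 2 were higher and 1 lower. MYC, a transcription factor of growth, read 11.46 and 11.20 in TPC1, with BCPAP at 9.55 and 9.63 and K1 at 9.99 and 10.05, and was 3.34-fold and 2.48-fold higher. ETV4, an ETS factor induced by the pathway, read 6.97 and 7.11 in TPC1, with BCPAP at 8.31 and 8.32 and K1 at 8.69 and 8.71, and was 2.41-fold and 3.16-fold lower. EPHA4, an ephrin receptor, was higher (means 7.71, 6.95 and 7.16). HMGA1, an architectural chromatin protein, read 10.39 and 10.60 in TPC1, with BCPAP at 12.15 and 12.01 and K1 at 12.19 and 12.32, 3-fold and 3.39-fold lower, but was not called with median centring. FOSL1, a Fos family member, and SPRY4, a Sprouty inhibitor, were also lower and not called with median centring, and a dimmer SPRY4 probe was called against neither line. Of the other Sprouty genes SPRY1 was higher (means 8.70, 7.79 and 8.30), though a dimmer probe of it was called against BCPAP only. SPRY2 in TPC1 lay above BCPAP and below K1 (9.28, 8.33 and 10.27). DUSP6, the phosphatase of ERK, had means of 9.03, 8.80 and 9.07 and was called against neither line. The list was chosen for the drivers of these lines, and its counts are a description.

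In the list of receptor tyrosine kinases without RET, 7 of 19 measured were higher (36.8%, against 16.5% of all genes) and none lower. All were under 2-fold, and 1 was called with median centring. PDGFRB and FGFR4, among the higher, read near background (means 6.99, 6.71 and 6.78, and 6.86, 6.65 and 6.58). The ephrin receptors EPHA4 and EPHA2 were counted with the MAPK genes, and EPHA2 was lower (means 8.68, 8.98 and 8.99). ERBB2, a co-receptor for neuregulins, and MET, the receptor for hepatocyte growth factor, had means of 9.37, 8.75 and 8.67 and of 9.14, 8.68 and 8.31, and neither was called with median centring. Of the 16 ligands of the EGF and FGF receptors and related growth factors, 4 were higher (25%) and 3 lower (18.8%). With median centring these were 1 and 2. EREG, the EGF receptor ligand epiregulin, read 8.28 and 8.20 in TPC1, with BCPAP at 6.74 and 6.70 and K1 at 6.95 and 6.97, in the opposite direction to HBEGF. VEGFC, the lymphatic growth factor, read 8.14 and 8.27 in TPC1, with BCPAP at 10.01 and 10.00 and K1 at 9.46 and 9.60, and was 3.48-fold and 2.51-fold lower.

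The insulin-like growth factor system had 6 of 11 measured genes higher (54.5%) and 1 lower, with 2 and 1 under median centring. IGFBP3, the main carrier of insulin-like growth factors in blood, read 12.29 and 12.17 in TPC1, with BCPAP at 8.64 and 8.56 and K1 at 9.98 and 10.25, and was 12.4-fold and 4.33-fold higher. IGFBP7, a related secreted protein, read 13.42 and 13.35 in TPC1, with BCPAP at 11.66 and 11.80 and K1 at 11.88 and 11.92, and IGFBP4 above went the other way. In the TGF-beta and BMP list 4 of 26 were higher (15.4%) and 8 lower (30.8%), with 2 and 3 under median centring. ID2, a helix-loop-helix inhibitor of differentiation, read 9.77 and 10.03 in TPC1, with BCPAP at 7.59 and 7.69 and K1 at 7.41 and 7.33, and was 4.79-fold and 5.78-fold higher. Its relatives ID1 and ID3 were lower in TPC1 (means 10.41, 11.98 and 11.34 for ID1), ID3 not with median centring. BMP2 was not above background in TPC1 (means 6.71, 7.89 and 9.48).

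Of 25 Wnt ligands, receptors and inhibitors 8 were higher (32%) and 3 lower (12%), with 4 and 1 under median centring. Of 16 Notch pathway genes 5 were higher (31.2%) and none lower, with 3 higher under median centring. FZD7, a Wnt receptor, had means of 8.34, 7.47 and 7.56, but its other probe was called against neither line (7.24, 7.27 and 7.21). AXIN2, a feedback inhibitor of the pathway, had 7.89, 6.73 and 7.23. LFNG, which modifies Notch with sugars, read 10.18 and 10.24 in TPC1, with BCPAP at 6.81 and 6.77 and K1 at 6.87 and 6.92, at least 9.79-fold higher than BCPAP and 9.96-fold higher than K1, while a dimmer probe near background was called against neither. HES4, of the HES family of repressors, had means of 10.10, 9.09 and 8.22. Of 23 YAP and TEAD targets 8 were higher (34.8%) and 3 lower (13%), with 5 and 0 under median centring. The higher included WWC1, a regulator of the Hippo pathway (means 10.48, 8.64 and 7.98), and CRIM1, a transmembrane BMP-binding protein (9.69, 8.48 and 8.35). CCN2, a classical target, was the other way (means 10.92, 11.30 and 12.03) and lost its call under several alternatives. A dimmer CCN2 probe was lower against both lines too (9.99, 10.51 and 11.22).

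Glycolysis and hypoxia genes were higher in 13 of 31 (41.9%, against 16.5%) and lower in 1, with a median difference of 0.36, and in 4 and 0 with median centring. ANGPTL4, a lipase inhibitor induced by hypoxia, read 11.27 and 11.11 in TPC1, with BCPAP at 9.91 and 10.03 and K1 at 8.98 and 9.03, and was 2.34-fold and 4.56-fold higher; a dimmer probe of it was not called against BCPAP. HK2, a hexokinase, read 9.05 and 8.97 in TPC1, with BCPAP at 7.90 and 7.80 and K1 at 7.64 and 7.56, and was 2.24-fold and 2.66-fold higher, while a dimmer probe was called against K1 only (7.59, 7.49 and 7.28). Among genes of lipid synthesis 5 of 21 were higher (23.8%) and 1 lower (4.76%), with 3 and 0 under median centring. The higher were led by ACSS2, which makes acetyl-CoA from acetate (2.92-fold and 3.38-fold), and ELOVL6, a fatty acid elongase (means 9.31, 7.87 and 8.12). SREBF1, their transcription factor, was higher too (means 8.56, 7.51 and 7.72). Of 20 NRF2 targets 5 were higher (25%) and 2 lower (10%), with 1 and 0 under median centring. NQO1, a quinone reductase, led the higher ones and read 11.24 and 11.10 in TPC1, with BCPAP at 8.78 and 8.79 and K1 at 9.53 and 9.63. Of 29 glutathione transferases, aldehyde dehydrogenases and metallothioneins 9 were higher (31%) and 7 lower (24.1%), with 2 and 4 under median centring. GSTO2 and GSTT1, glutathione transferases, were among the lower, with means of 7.15, 9.30 and 8.84, and 6.76, 8.98 and 8.40.

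Of 38 interferon-stimulated genes 5 were higher (13.2%, against 16.5% of all genes) and 7 lower (18.4%, against 11.9%). With median centring these were 1 and 2. MX1, an antiviral GTPase, read 6.95 and 6.87 in TPC1, with BCPAP at 8.80 and 8.87 and K1 at 9.09 and 9.44, and IFI27, a small interferon-induced protein, read 8.87 and 8.96 in TPC1, with BCPAP at 10.68 and 10.68 and K1 at 10.80 and 10.66. GBP2, a guanylate-binding protein, went the other way with 10.42 and 10.35 in TPC1, with BCPAP at 8.01 and 8.09 and K1 at 8.93 and 9.11. In the list of antigen presentation 3 of 23 were higher (13%) and 5 lower (21.7%), with 0 and 2 under median centring. MICB, a ligand of the NKG2D receptor of killer cells, read 6.82 and 6.74 in TPC1, with BCPAP at 9.14 and 9.34 and K1 at 8.06 and 8.09, and was at least 5.24-fold and 2.34-fold lower. CD74, the invariant chain of MHC class II, had means of 6.93, 8.14 and 8.71.

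Of 25 mitotic genes measured, 1 was higher (4%, against 16.5% of all genes) and 4 lower (16%, against 11.9%), none over 2-fold and none called with median centring. Among regulators of G1, 6 of 20 were higher (30%) and 3 lower (15%), with 4 and 0 under median centring. CCND2, cyclin D2, read 9.86 and 9.66 in TPC1, with BCPAP at 6.67 and 6.71 and K1 at 7.51 and 7.39, at least 7.17-fold higher than BCPAP and 4.97-fold higher than K1, while CCND1, cyclin D1, had means of 11.72, 12.25 and 12.27 and was called lower, though not with median centring. Of 29 genes of cell death 5 were higher (17.2%) and 3 lower (10.3%), near the shares of all genes, with 3 and 1 under median centring. BCL2, which holds back apoptosis, had means of 7.82, 6.72 and 6.96. CASP1, the protease that matures interleukin 1 beta, had 7.09, 8.34 and 8.79.

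**Figure D4:**
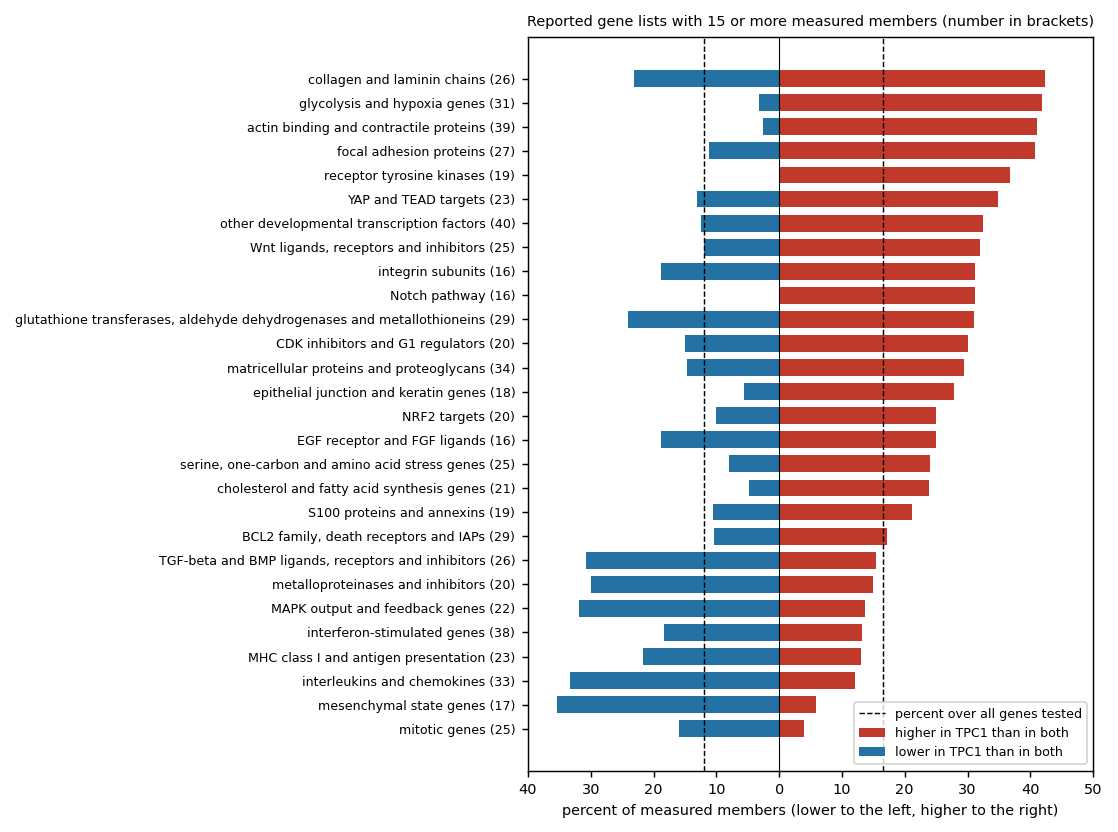
Percent of the measured members of each gene list that were higher (right) or lower (left) in untreated TPC1 than in both other lines, for the reported lists with 15 or more measured members; dashed lines give 16.5% and 11.9% over all genes tested. Collagens and laminins, glycolysis, actin and focal adhesion genes reach 40.7% to 42.3% higher, and mesenchymal genes, interleukins and MAPK output genes 31.8% to 35.3% lower.

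On the 6 arrays with Y15, which had no part in the fit that set the genes apart, most of the large differences were called again. These arrays were quantile normalized together with the untreated ones. They hold the same lines with Y15 and are not a separate experiment on untreated cells. Of the 248 genes over 2-fold higher, 213 (85.9%) were called higher than in both lines with Y15, where 9% of all genes were, and of the 100 lower, 86 (86%) were called lower, where 5.45% of all genes were; none was called the opposite way. Of all 1954 higher and 1412 lower genes, 778 (39.8%) and 479 (33.9%) were called the same way and 1 and 15 the opposite way. The K1 arrays with Y15 differed more from each other than the untreated ones did, with 163 genes over 2-fold apart between replicates against 0. FXYD2 kept a mean of 12.39 in TPC1 with Y15, SPP1 of 11.99 and TPM2 of 12.18, all still far above BCPAP and K1. CXCL8 was not called with Y15. Its mean was 13.52 in TPC1 against 13.17 in BCPAP and 13.92 in K1, so the 3 lines came to lie within 1 log2 unit. SLC7A5, VCAN and IGFBP3 were not called against both lines on the Y15 arrays either, though all stayed above them in the mean. SLC7A5 was 1.60 and 1.56 higher (adjusted p = 0.0317 and 0.052 from limma), VCAN 1.03 and 0.62 (0.0688 and 0.295) and IGFBP3 1.22 and 0.14 (0.000166 and 0.369).

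**Figure D5:**
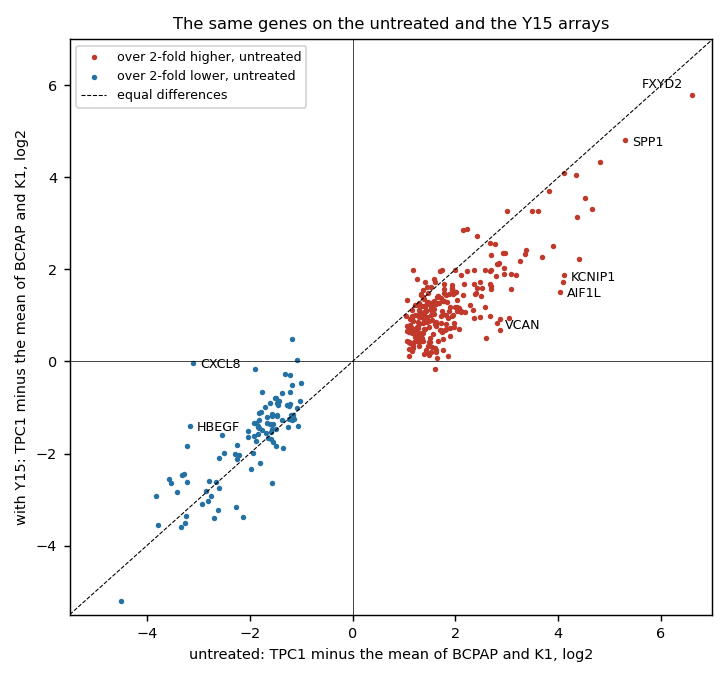
Difference of TPC1 to the mean of BCPAP and K1 in log2 signal on the untreated arrays (horizontal) and on the Y15 arrays (vertical) for the genes over 2-fold apart in untreated cells, with 1 point a gene and a dashed line where both are equal. FXYD2 stands at 6.60 and 5.79, while AIF1L falls from 4.04 to 1.51 and CXCL8 moves from -3.10 to -0.02.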

How the data were processed

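The authors deposited, for each probe, the signal intensity and its detection p-value (exported by GenomeStudio per the submitters' processing notes) and a table of log2 values, which equal log2 of the intensities after quantile normalization over the 12 arrays (largest difference 5e-09). That scale, without background correction, was kept. The methods name an 8-sample Illumina array, while the 47311 probes were named through a platform annotation that gave 1 gene for 30109, several for 8 and none for 17194. A further 12 probes with empty cells were left out. Genes were kept where their brightest probe, which stands for the gene, had a detection p under 0.05 on both arrays of at least 1 untreated line, which left 11847. Line means of the 6 untreated arrays were compared with limma 3.58.1 in R 4.3.3 (3 residual and 7.82 prior degrees of freedom) and p-values adjusted by Benjamini-Hochberg over all genes. The number of arrays limits the precision. A gene above background on neither array of a line was set there to the lowest signal above background of each array, or its own if higher. This gives the folds written "at least".

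The genes to describe and the 37 lists were chosen with earlier results of these data known. Named genes were the 10 largest smaller differences in each direction among genes above background on all arrays, the same among genes measured on one side only, up to 4 per list and direction, and a few fixed genes (RET, PTK2, PTK2B, CDKN1A, MDM2, CDKN2A, CDKN2B and MTAP). PAX8, NKX2-1, DUSP6, SPRY2, EPHA2, PDGFRB, FGFR4, SNAI2, VIM, CDH2, ID1, CXCL1, CXCL2, CXCL5, CD14, CD68 and LAPTM5 fall outside this rule and were picked after their values were seen. Some genes and 1 list are not reported here. The fits were tested on simulated data. For the motif shares, promoters were matched to RefSeq by gene identifier, and the promoters shown were taken by symbol. Deviations from the line means correlated at 0.04 to 0.12 between lines, and replicate number was not used as a pair in the main fit. The labels do not say whether arrays of the same number were handled together. Alternatives were median centring, neqc, other filters, all 12 arrays in the fit, the deposited log2 table, the mean of a gene's probes, the rule of the methods, a block for replicate and leaving out each array.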

Additional observations from a re-analysis of the deposited data

Results flagged for a closer look

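For the 40 leading genes, the difference of TPC1 to the mean of BCPAP and K1 was compared between the Y15 arrays and the untreated arrays with an interaction term in limma over all 12 arrays. It differed at an adjusted p under 0.05 in 27 of the 40 and in 1623 of all 11847 genes (13.7%), and 16 of the 40 also changed by over 1 log2 unit. The genes were picked on their untreated values, which favours a smaller difference on other arrays. Among genes higher in untreated TPC1, the difference was smaller with Y15 by the following log2 values, given as Y15 minus untreated: AIF1L -2.52, SLC17A3 -2.37, KCNIP1 -2.24, FLG -2.17, VCAN -1.99, THBS1 -1.42, MATN2 -1.41, SCARA3 -1.39, CEMIP2 -1.29, GFRA1 -1.09, UGT2B11 -1.05, LUM -1.03 and SYTL2 -1.0. AIF1L went from a mean of 11.18 to 8.81 in TPC1 and stayed near 7 in the other lines, and SLC17A3 from 10.78 to 8.43. Among genes lower in untreated TPC1, CXCL8 changed by 3.07, HBEGF by 1.77 and SFRP1 by 1.39. CXCL8 went from 9.98 to 13.52 and HBEGF from 8.42 to 10.30 in TPC1, whereas for SFRP1 1 of the 2 TPC1 arrays with Y15 was above background (mean 6.90, 6.81 untreated) and the means of BCPAP and K1 went from 10.03 in both to 8.56 and 8.92. The spread of the K1 replicates with Y15, with 163 genes over 2-fold apart, enters each of these tests.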

How the results depend on the processing

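Depth on these arrays is signal over background, and 33.8% to 43.1% of probes were above background on an untreated array. With median centring 779 genes were higher and 93 lower in TPC1 than in both lines, and 58 over 2-fold lower. It called 2887 genes against the mean of the other lines (2428 higher and 459 lower), 4802 against BCPAP (4460 and 342) and 1491 against K1 (840 and 651), against 6672 (3442 and 3230), 7319 (3897 and 3422) and 5571 (2902 and 2669) with quantile normalization, and 831 of the set-apart genes were called the same way with Y15. It kept the calls of 125 of the 235 named genes. TRIAP1 turned from lower to 0.13 on the log2 scale. With neqc 587 genes were over 2-fold higher and 300 lower. Leaving out each array gave 1365 to 2202 higher and 937 to 1592 lower genes, the fewest without TPC1 replicate 1. Set-apart genes called the same way with Y15 numbered 567 without TPC1 Y15 replicate 1, 618 without replicate 2, and at most 1699 without another Y15 array. The replicate block gave 2036 higher and 1475 lower genes, 248 and 100 over 2-fold. With all 12 arrays in the fit 209 of the named genes kept their calls, and the deposited table kept all 235. Slides were not named in the files used here, so slide as a block was not run. None of the 40 leading genes, picked for the largest differences on the untreated arrays, lost its call under any alternative.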

Other observations

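Further gene groups, with means in the order TPC1, BCPAP, K1, are given as values. Of 40 other developmental transcription factors 13 were higher (32.5%) and 5 lower (12.5%), with 4 and 2 under median centring. ZIC2, a zinc finger factor, had means of 7.89, 6.79 and 6.95 and FOXF2, a forkhead factor, of 7.90, 6.55 and 7.10, while KLF2, a Krüppel-like factor of endothelium, had 8.16, 10.20 and 9.77. Of 9 measured HOX genes none was higher and 1, HOXB7, was lower, at background in TPC1 (6.70, 9.63 and 7.11), though not with median centring. Of 14 stem cell surface markers 5 were higher (35.7%) and 4 lower (28.6%), with 2 and 3 under median centring. CD24, a mucin-like surface protein, had means of 13.75, 12.24 and 11.12, and CD55, which protects cells from complement, of 7.08, 8.80 and 8.32.

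Of 20 metalloproteinases and inhibitors 3 were higher (15%) and 6 lower (30%), with 1 and 0 under median centring. The brightest MMP28 probe was above background on both TPC1 arrays and on no array of the other lines (7.61, 6.60 and 6.71). The dimmest of its 3 probes was called against neither line. Of 25 genes of serine and one-carbon metabolism and amino acid stress 6 were higher (24%) and 2 lower (8%), with 4 and 0 under median centring. Among the higher were SLC3A2, the partner chain of SLC7A5 (10.48, 9.88 and 9.23), and PSAT1 of serine synthesis (10.60, 10.16 and 9.20). Neither SLC3A2 nor PSAT1 was called with all 12 arrays in the fit. Of 19 S100 proteins and annexins 4 were higher (21.1%), among them ANXA3 (9.76, 8.96 and 8.14), and 2 lower (10.5%). With median centring these were 1 and 0. Of 9 caveolae proteins 1, CAVIN2, was higher (8.62, 8.11 and 6.75) and 1, PACSIN3, lower (7.54, 8.31 and 7.83), the second not with median centring, and of 9 cancer-testis genes 1, SPANXA1 of a family with near-identical members, was lower (6.72, 7.35 and 6.92), not with median centring. ALDH1A1, a retinal dehydrogenase, was higher in TPC1 (7.96, 7.05 and 6.85), as it was on its other probe (7.06, 6.58 and 6.54). Of 8 measured thyroid differentiation genes FOXE1 alone was set apart (8.03, 7.36 and 7.65), but not with median centring, and its other probe was called against neither line (7.53, 7.53 and 7.30).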
